A study of Homo sapiens with 38 samples.

Results

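Autophagy and lysosome genes were followed through glucose deprivation, tunicamycin, mitochondrial inhibitors and loss of mitochondrial DNA in human tumour cell lines. The group holds 41 genes, of 19775 genes with a probe set on the array, chosen by name: 25 autophagy factors, the transcription factors TFEB and TFE3, and 14 lysosome genes. Each gene was read through the probe set with the highest mean signal over all arrays. Of the 41 genes, 39 passed a filter on low signals and were tested among 11456 genes, namely 24 autophagy factors, TFE3 and the 14 lysosome genes. ULK2 and TFEB did not pass: their signals over the controls of HT-1080 ran from 1.94 to 20.5 and from 5.98 to 35.4, and they are not counted below. A dimmer probe set of TFEB did pass the filter, and it is not counted among the members either.

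The study asked how cancer cells respond to stress of the endoplasmic reticulum (ER), and measured 38 cultures on 1 Affymetrix array each. The lines were HT-1080, from a fibrosarcoma, and HT-29, from a colorectal adenocarcinoma, and rho0 marks derivatives without mitochondrial DNA. The stresses were 2-deoxyglucose (2DG, a glucose analogue that blocks glycolysis and disturbs protein glycosylation), glucose starvation (GS) and tunicamycin (TM, an inhibitor of N-glycosylation). Treatment lasted 18 h, except 14 h for the third HT-29 GS array and for HT-29 rho0 GS, and the labels used here state no dose for 2DG or TM.

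The compounds were metformin (Met, 10 mM), buformin (Bu, 300 uM) and phenformin (Phen, 100 uM), which are biguanides, rotenone (Rot, 100 nM), antimycin A (AA, 10 ng/ml) and versipelostatin (VST, 3 uM), known for blocking the induction of the ER chaperone HSPA5 in glucose-deprived cells. Rotenone and antimycin A block the respiratory chain at different complexes, and biguanides also slow respiration. The group sizes were 6 HT-1080 controls, 3 arrays of HT-1080 with 2DG, 2 with GS and 1 with TM, 2 HT-1080 rho0 controls, 3 HT-29 controls, 3 HT-29 GS arrays and 1 HT-29 rho0 control. Every other condition had 1 array: 2DG with each of the 6 compounds, GS with VST in either line, GS with Rot, GS with Rot and floating cells, GS with AA and floating cells, TM with Rot, TM with AA, HT-1080 rho0 with 2DG, TM or GS (GS with floating cells), and HT-29 rho0 with GS. Every treated array has 1 control assigned to it in its description, and changes are from that control, called its own control.

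Autophagy wraps cytoplasm in a double membrane and delivers it to lysosomes, where acid hydrolases break it down. The ULK kinase complex starts the process, the class III phosphoinositide 3-kinase complex marks the membrane, WIPI and ATG2 proteins and the ATG9 vesicles feed its growth, and a conjugation system attaches ATG8-family proteins such as MAP1LC3B to it. Receptors such as SQSTM1 bind cargo and ATG8 proteins and are themselves degraded. Transcripts were measured here and autophagic flux was not, so a transcript level says nothing on how fast cargo is degraded.

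The 6 measured transcripts of mitochondrial DNA read at most 10.8 in the rho0 controls and at least 176 in the parental ones. EPCAM, an epithelial adhesion protein, averaged 5377 over all HT-29 arrays and 5.02 over all HT-1080 arrays, rho0 included, and VIM, a mesenchymal filament protein, 32.7 and 10645. The trimmed mean of the deposited signals lay between 124 and 136 on parental controls and between 122 and 131 under a stress alone in parental cells. It lay between 89.5 and 102 for 2DG or GS with a compound and between 118 and 119 for TM with a compound. On rho0 controls it was 110 to 117, and on rho0 arrays with a stress 90.2 to 113. Arrays were therefore scaled to 1 trimmed mean, and where the deposited scaling changes a split of calls by direction, both are given. All values are per culture, and fewer cells of a kind in a culture cannot be told apart from less transcript per cell.

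TFEB and TFE3 bind an E-box with flanking bases near many lysosome genes, so the promoters are shown before the values. In RefSeq promoters of GRCh38.p14, running from 250 bases before to 50 after the start, TCACGTG on either strand occurred in 7 of the 35 members with an entry and in 1303 of 35116 promoters (3.71%). The 7 were 5 of 9 lysosome genes, with up to 20 bases shown on either side, none past the start site, and the motif in capitals, and 2 of 24 autophagy factors:
LAMP1 chr13:113297059-113297105, plus strand: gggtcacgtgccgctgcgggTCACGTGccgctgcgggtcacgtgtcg
MCOLN1 chr19:7522562-7522608, plus strand: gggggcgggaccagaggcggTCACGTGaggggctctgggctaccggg
CTSA chr20:45891272-45891318, plus strand: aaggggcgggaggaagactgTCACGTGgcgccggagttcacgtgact
ATP6V0D1 chr16:67481191-67481237, minus strand: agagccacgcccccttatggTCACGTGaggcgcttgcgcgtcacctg
CTSD chr11:1763948-1763994, minus strand: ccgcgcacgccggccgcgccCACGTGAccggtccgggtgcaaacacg
ATG14 chr14:55411831-55411871, minus strand: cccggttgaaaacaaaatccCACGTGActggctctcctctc
ATG3 chr3:112561963-112562001, minus strand: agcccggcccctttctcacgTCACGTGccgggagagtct
CTSD and ATG14 carry the motif on the opposite strand, and LAMP1 holds it at several places in its window. TGATGNAA, a form of the element bound by ATF4 and C/EBP proteins in ER stress, was in none of the 35 promoters and in 3.62% of all. A match is only a string of letters, and binding was not measured. LAMP2, ATP6V1A, UVRAG, HEXA, CTSB and ATP6V1H have no entry in the promoter table.

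In HT-1080, 2DG raised 9 of the 39 members and lowered none. Of all genes tested 8.27% were called at an adjusted p under 0.05, 4.9% as higher and 3.37% as lower. Cargo receptors, MAP1LC3B and several lysosomal proteins were among the 9. The 5 of 24 autophagy factors called were MAP1LC3B, OPTN, SQSTM1, ATG4B and UVRAG, and the 4 of 14 lysosome genes were MCOLN1, CTSL, NPC1 and CTSB. The median log2 change was 0.28 over the autophagy factors, 0.20 over the lysosome genes and 0.02 over all genes.

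MAP1LC3B, the ATG8 protein most used to mark autophagosomes, read 1736, 1115 and 979 on the 3 arrays with 2DG and 532, 392 and 398 on their own controls. Every treated array lay above all 6 HT-1080 controls, whose highest was 532. The log2 change was 1.49 (SE 0.28, n = 3, adjusted p = 0.0103), or 2.81-fold. SQSTM1, a receptor for ubiquitinated cargo, read 2196, 2033 and 2231 with 2DG and 1320, 1070 and 965 on the controls, and rose by a log2 of 0.95 (SE 0.22, adjusted p = 0.0224). OPTN, a receptor for bacteria and mitochondria, read 471, 631 and 629 against 272, 298 and 274, a log2 change of 1.01 (SE 0.22). The SQSTM1 and OPTN signals with 2DG did not overlap those of any HT-1080 control. ATG4B, a protease that trims ATG8 proteins, read 396, 370 and 331 against 265, 209 and 216, and rose by a log2 of 0.66. UVRAG, a subunit of the class III kinase complex, read 215, 235 and 167 against 130, 152 and 132, and rose by 0.55.

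Among lysosome genes MCOLN1, a cation channel of the lysosomal membrane, read 110, 181 and 159 with 2DG and 57.0, 104 and 77.8 on the controls, a log2 change of 0.88 (SE 0.20, adjusted p = 0.0227). CTSL, a cysteine protease, read 689, 526 and 732 against 470, 265 and 408, a log2 change of 0.78. NPC1, which exports cholesterol from the lysosome, read 925, 1291 and 1252 against 783, 751 and 630, a log2 change of 0.67. For all 3 genes the 2DG arrays lay above every HT-1080 control. CTSB, another cysteine protease, rose by 0.53 on the log2 scale (SE 0.11). The proton pump subunits ATP6V0D1, ATP6V1A and ATP6V1H were not called, with log2 changes of 0.02, -0.37 and 0.01. TFE3 was not called either, at 0.31 (SE 0.20). CTSL and UVRAG were not called with the deposited scaling, and SQSTM1, ATG4B, NPC1, CTSL and CTSB not when all probe sets of a gene were averaged.

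WIPI1, which binds the phosphoinositide of the forming membrane, had the largest change of all members with 2DG and was not called. It read 414, 402 and 482 against 106, 177 and 138, a log2 change of 1.61 with an SE of 0.72 and an adjusted p of 0.191. The SE draws on a spread shared by both lines, and the HT-29 arrays of WIPI1 differ widely, as given below. When only HT-1080 arrays were fitted the SE was 0.15 and WIPI1 passed, as did 15 members in all, where 24% of all genes were called. With any 1 of the 3 arrays with 2DG or of their 3 controls left out, none of the 39 members passed. The share of all genes called in those fits is not given, so the members cannot be set apart from all genes there.

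**Figure D1:**
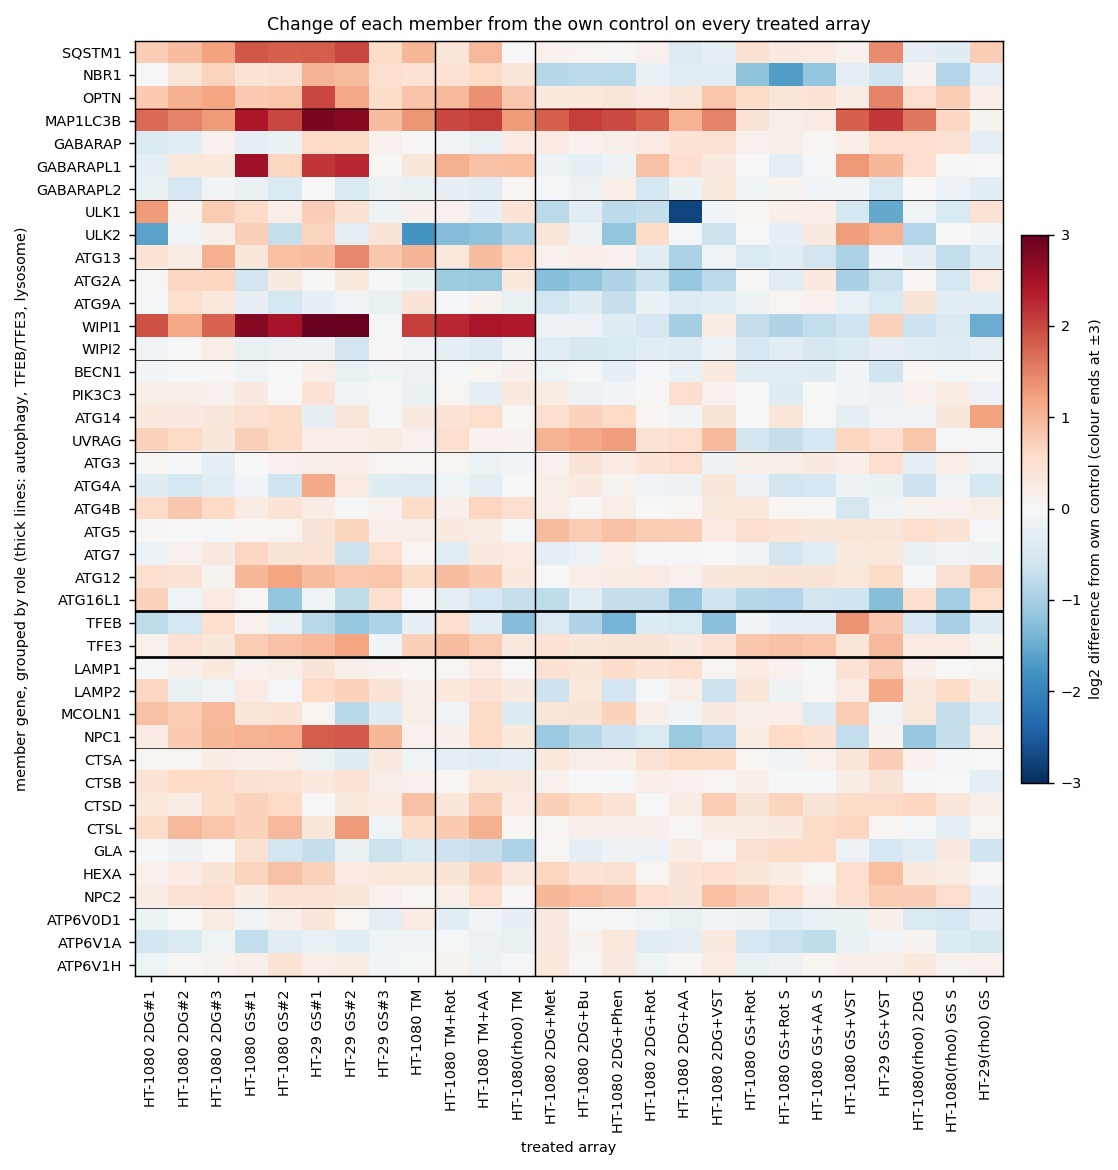
Log2 change of each of the 41 members (rows, by role; ULK2 and TFEB, which were dim, included) from the own control on each of the 26 treated arrays (columns); red is higher and blue lower than the control. With the common scaling and the probe sets used, MAP1LC3B, OPTN, CTSD and HEXA are above the control on all 26 arrays. In parental HT-1080 WIPI1 is 1.16 to 2.72 above it with a stress alone and 0.23 or less above it when 2DG or GS was combined with a compound.

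Glucose starvation of HT-1080 raised 6 members and lowered none, against 9.45% of all genes called (4.36% higher and 5.1% lower). They were the receptor SQSTM1, MAP1LC3B, ATG12, UVRAG, and the lysosome genes NPC1 and HEXA. MAP1LC3B read 1982 and 1904 with GS and 362 and 468 on the controls, a log2 change of 2.22 (SE 0.35, n = 2, adjusted p = 0.00475), or 4.67-fold. SQSTM1 read 3498 and 2581 against 965 and 746, a log2 change of 1.82 (SE 0.27, adjusted p = 0.00368), or 3.52-fold. Both GS arrays lay above every control for both genes.

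ATG12, the ubiquitin-like protein joined to ATG5, read 1210 and 1010 with GS and 599 and 441 on the controls, and rose by a log2 of 1.10 (SE 0.15). NPC1 read 1104 and 1592 against 537 and 758, and rose by 1.05 (SE 0.23). HEXA, a subunit of beta-hexosaminidase, read 517 and 866 against 325 and 467, and rose by 0.77. UVRAG read 237 and 247 against 142 and 161, and rose by 0.66. In each of these 4 genes both GS arrays were above all 6 controls, though for HEXA the margin of GS replicate 1 over the highest control, 497, was small.

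WIPI1 at 2.60 (SE 0.88, adjusted p = 0.0882) and GABARAPL1, an ATG8 protein, at 1.60 (adjusted p = 0.0778) were not called. WIPI1 read 798 and 896 against 116 and 156, and GABARAPL1 117 and 78.2 against 15.3 and 47.7, so that neither overlapped its controls. Fitted on HT-1080 arrays alone, 16 members passed, these 2 among them, where 24.3% of all genes were called. No member passed with either GS array or its control left out. With the deposited scaling 5 members were higher and 1 lower, where 8.58% of all genes were called, and UVRAG was not called. NPC1, at 0.60, was not called with its probe sets averaged. The median was 0.35 over autophagy factors, 0.30 over lysosome genes and -0.02 over all genes. No member differed between 2DG and GS, a comparison in which 0.0175% of all genes were called. An unadjusted limma p under 0.05 was held by 5 of the 39 members and by 874 of all 11456 genes.

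Glucose starvation of HT-29 raised 14 members and lowered 1, against 27.1% of all genes called (11.6% higher and 15.5% lower). All 3 receptors rose, as did 3 of 4 ATG8 proteins (GABARAPL2 was not called, at -0.22) and 10 of the 24 autophagy factors in all. TFE3 rose too, and LAMP2, NPC1 and HEXA among the 14 lysosome genes. GLA, alpha-galactosidase A, was the member that fell. Medians were 0.28 over autophagy factors, 0.20 over lysosome genes and -0.04 over all genes.

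WIPI1 read 404, 438 and 18.2 with GS and 3.04, 19.6 and 19.0 on the controls. It was high on the 2 arrays taken at 18 h and at the control level on the third, taken at 14 h. The fitted log2 change was 3.21 (SE 0.72, n = 3, adjusted p = 0.00836). All 3 controls lie under 45.5, the level of the filter on low signals. Against that level the geometric mean of the 3 GS arrays, 148, was at least 3.25-fold higher. The 14 h array lies under that level itself, so this fold is not one that each GS array reached. With 1 array left out the fitted change ran from 2.04 to 4.84, and the call was lost without replicate 1 or 2 or its control. MAP1LC3B read 2767, 2944 and 1032 against 387, 442 and 543, a log2 change of 2.15 (SE 0.28, adjusted p = 0.000838). SQSTM1 read 4455, 6508 and 2709 against 1266, 1606 and 1852, a log2 change of 1.46 (SE 0.22). All 3 GS arrays were above the controls for both genes, the 14 h array least so.

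GABARAPL1 read 170, 281 and 66.6 with GS and 33.9, 53.7 and 64.6 on the controls, a log2 change of 1.49. OPTN read 129, 329 and 63.8 against 27.7, 148 and 42.1, a change of 1.23, with overlap of the 2 groups. ATG13, a subunit of the ULK complex, read 362, 589 and 282 against 189, 214 and 158, a change of 1.06, and did not overlap. ATG12 read 1165, 765 and 845 against 611, 444 and 473, a change of 0.85 without overlap. NPC1 read 701, 672 and 465 against 196, 183 and 232, a change of 1.55 (SE 0.18, adjusted p = 0.000572), with every GS array at least as high as 465 and no control above 232. NBR1, a receptor related to SQSTM1, rose by 0.82, TFE3 by 0.70, LAMP2 by 0.56, GABARAP by 0.43, HEXA by 0.41 and ATG5 by 0.40, while GLA fell by 0.53.

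The count in HT-29 varied with the arrays used. Without replicate 1 or 2 or its control 7 members were called, and without replicate 3 or its control 18. ATG12, ATG13, MAP1LC3B, NBR1, NPC1, OPTN and SQSTM1 passed under each of these. With HT-29 arrays alone 8 members passed, where 10.2% of all genes were called. No member's GS response differed between the lines (0.567% of all genes called), and without the 14 h array 2 did. With every array kept, 2 members and 1540 of all 11456 genes had an unadjusted limma p under 0.05.

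**Figure D2:**
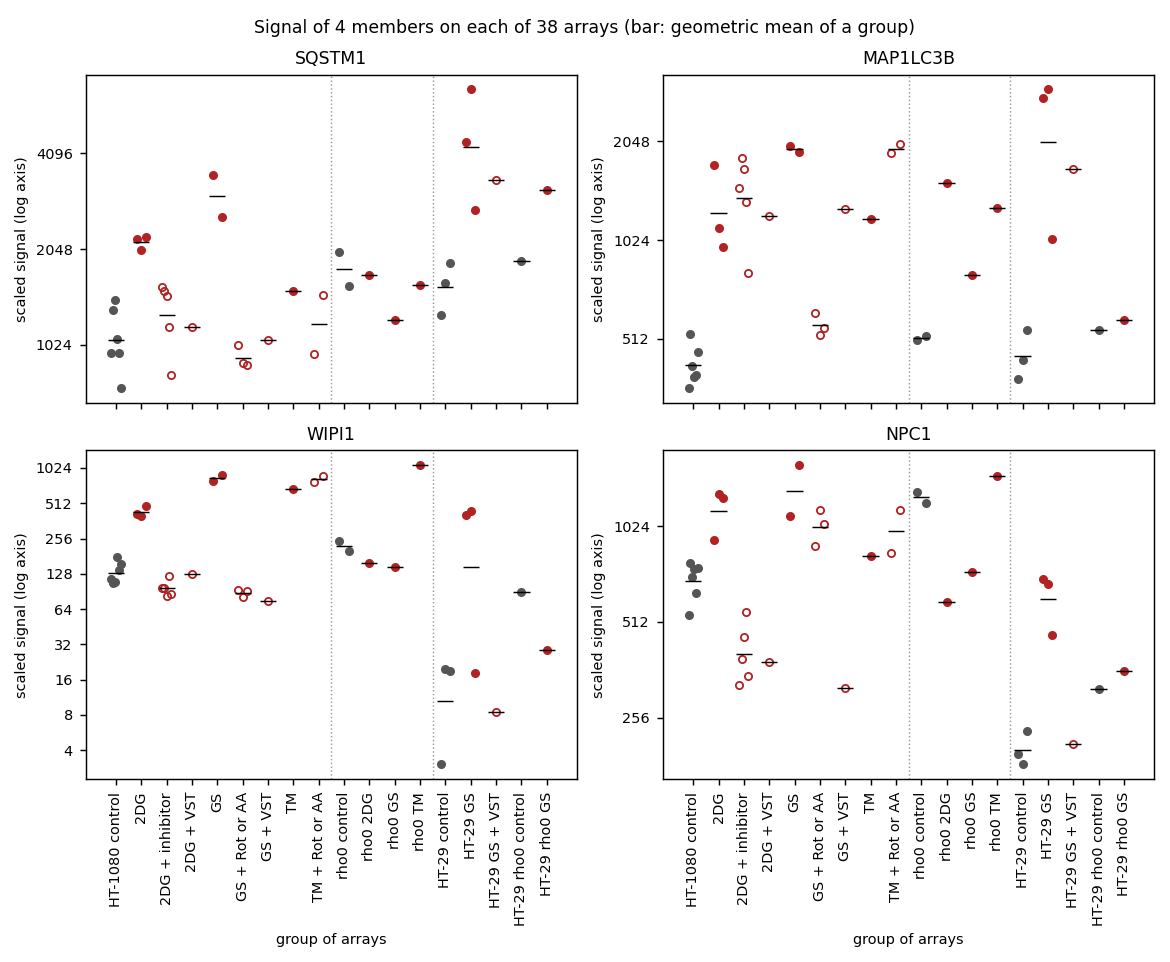
Scaled signal (log axis) of SQSTM1, MAP1LC3B, WIPI1 and NPC1 on every array, 1 point per culture, grouped by condition; grey points are controls, filled red ones a stress alone, open ones a stress with a compound, and bars geometric means. The 14 h HT-29 GS array reads 18.2 for WIPI1, beside 404 and 438 on the other GS arrays of that line, and the 3 biguanides with 2DG read 83.4 to 96.4.

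Tunicamycin was hybridized once in HT-1080, so its values have no replicate. MAP1LC3B read 1191, above every control, a log2 change of 1.34 from its control. WIPI1 read 672, a change of 2.06, and SQSTM1 1506, a change of 1.01 from control 6, which held the lowest SQSTM1 signal of the 6 controls (746). TFE3 changes against control 6 start from 282, where the other controls read 433 to 502.

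Respiratory inhibitors changed many members when added to 2DG. Compared with 2DG alone, the 5 arrays with a biguanide, Rot or AA had 4 members higher and 14 lower, where 34.5% of all genes were called (12.7% higher and 21.7% lower). The 3 biguanide arrays share 1 own control, which no array with 2DG alone has. Of the arrays with 2DG alone only replicate 2 shares its own control with Rot and AA. All 3 receptors, both tested subunits of the ULK complex and all 4 genes of lipid transfer and phosphoinositide binding were lower, and none of the 4 class III kinase subunits was called. NPC1, CTSL and CTSB were lower and, with the common scaling only, LAMP1 higher among the 14 lysosome genes. MAP1LC3B was not called.

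WIPI1 read 96.4, 96.2, 83.4, 123 and 86.1 with Met, Bu, Phen, Rot and AA, and 414, 402 and 482 with 2DG alone. The Rot array lay within the range of the untreated controls, 106 to 177, and the other 4 below it. The log2 difference was -2.03 (SE 0.66, adjusted p = 0.0231). ULK1, the kinase that starts autophagy, read 22.3, 33.4, 22.6, 30.1 and 3.08 against 56.1, 58.2 and 65.7, a difference of -1.89 (SE 0.45, adjusted p = 0.00348). Its AA array was far below the others, and without it the difference was -1.24. All 5 inhibitor arrays lie under 45.5, and against that level 2DG alone was at least 1.32-fold higher. ATG2A, a lipid transfer protein, read 51.5, 56.7, 67.9, 74.7 and 51.0 against 112, 188 and 167, a difference of -1.46 (SE 0.23, adjusted p = 0.000145), and every inhibitor array was below the lowest untreated control, 105.

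SQSTM1 read 1556, 1508, 1455, 1164 and 821 with the inhibitors and 2196, 2033 and 2231 without, a log2 difference of -1.0 (SE 0.24, adjusted p = 0.00358). The Rot and AA arrays lay within the range of the untreated controls, 746 to 1415, and the biguanide arrays between it and 2DG alone. NBR1 read 333, 354, 347, 483 and 450 against 612, 722 and 734, a difference of -0.80 (SE 0.17). ATG13 read 299, 311, 297, 272 and 176 against 350, 400 and 414, a difference of -0.82. ATG16L1, which directs conjugation to the membrane, read 67.4, 92.9, 69.1, 56.8 and 40.1 against 140, 87.7 and 91.4, a difference of -0.96 with overlap through the Bu array. NPC1 read 325, 390, 461, 549 and 345 against 925, 1291 and 1252, a difference of -1.51 (SE 0.23, adjusted p = 0.000106). Only the Rot array reached the lowest NPC1 control, 537.

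The other falls were CTSL at -0.74, OPTN at -0.72, ATG9A at -0.70, ATG4B at -0.64, CTSB at -0.43 and WIPI2 at -0.39. ATG5 rose by 0.79 (SE 0.13, adjusted p = 0.000212), and its inhibitor arrays, at 1529, 1334, 1461, 1276 and 1253, were all above the 2DG arrays, at 933, 752 and 722. With the common scaling GABARAP was higher by 0.52, the conjugating enzyme ATG3 by 0.48 and the membrane glycoprotein LAMP1 by 0.32. With the deposited scaling they stood at 0.13, 0.090 and -0.07, none called. MAP1LC3B, which was not called, read 1480, 1819, 1685, 1342 and 810 against 1736, 1115 and 979. UVRAG read 284, 307 and 334 with the 3 biguanides and 209 and 221 with Rot and AA.

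The direction of the smaller changes depended on the scaling. With the deposited scaling 1 member was higher and 18 lower, and the median of all genes moved from -0.12 to -0.48; of all genes called, 36.9% were higher in the first case and 7.23% in the second. Without 2DG replicate 2 the count was 5, namely ATG2A, ATG5, NBR1, NPC1 and ULK1. With all probe sets of a gene averaged NPC1 stood at -0.46, NBR1 at -0.25, SQSTM1 at -0.32, ATG16L1 at -0.22 and CTSB at -0.11, and none of these 5 was called. The biguanides alone gave 5 calls: NBR1 at -1.16, ATG2A at -1.55, NPC1 at -1.53, ATG5 at 0.87 and the pump subunit ATP6V1A at 0.60. With 2DG and Rot or AA the log2 difference was -1.50 for NPC1, -1.42 for ATG2A, -0.62 for NBR1 and 0.75 for ATG5. The difference between the compound classes was not tested.

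With glucose starvation the inhibitors lowered 8 members and raised 1, against 24.6% of all genes called (11.1% higher and 13.5% lower). The comparison rests on 1 array with Rot and 1 with AA, the latter including floating cells, against 2 GS arrays. WIPI1 read 93.4 with Rot and 91.1 with AA, and 798 and 896 with GS alone, a log2 difference of -3.26 (SE 0.79, adjusted p = 0.00527). MAP1LC3B read 612 and 554 against 1982 and 1904, a difference of -1.81 (SE 0.36, adjusted p = 0.00119). SQSTM1 read 1020 and 885 against 3498 and 2581, a difference of -1.45 (SE 0.28). In these 3 genes the inhibitor arrays were near the untreated controls and far from GS alone.

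NBR1 read 261 and 268 with the inhibitors and 729 and 830 with GS alone, a log2 difference of -1.62 (SE 0.21, adjusted p = 4.52e-05), and both inhibitor arrays lay below the lowest untreated control, 462. ATG13 read 130 and 121 against 355 and 343, a difference of -1.27, and UVRAG 108 and 109 against 237 and 247, a difference of -1.17. Both were again below the controls. ATG12 fell by 0.76 and HEXA by 0.60. GLA, at 558 and 618 against 564 and 276, was higher by 0.82 with an adjusted p of 0.0157, and one GS array lay within the inhibitor range. Without GS replicate 2 GLA stood at 0.053, and it was not called with the deposited scaling, without the block or without the floating-cell arrays.

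GS with Rot, on the array that includes floating cells, gave 81.7 for WIPI1, 526 for MAP1LC3B and 897 for SQSTM1, near the array without them. Without the floating-cell arrays 7 members were called. With the deposited scaling 23 members were lower and none higher, where 33.0% of all genes were called. Of all genes called the share that was higher went from 45.2% to 15.1%. Without GS replicate 2 only 1 member was called. Averaged over all their probe sets NBR1 stood at 0.28 and HEXA at 0.58, above GS alone.

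With tunicamycin Rot and AA changed none of the 39 members by this test, where 0.559% of all genes were called. An unadjusted limma p under 0.05 was held by 2 members and by 1463 of all 11456 genes. WIPI1 read 770 with Rot and 875 with AA, beside 672 with TM alone. MAP1LC3B read 1890 and 2004 beside 1191. ATG2A, the member with the largest difference, read 69.2 and 67.4 beside 132, a log2 difference of -0.90 (SE 0.30, adjusted p = 0.185). NPC1, at 846 and 1154 beside 823, was the 1 member whose inhibitor effect differed between 2DG and TM, by a log2 of -1.77 (SE 0.38, adjusted p = 0.0204, 4.51% of all genes called). WIPI1 differed by -2.32 (SE 1.09, adjusted p = 0.219) and was not called. Without 2DG replicate 2 or the array with TM and AA, NPC1 was not called, nor with its probe sets averaged (-0.72), and the deposited scaling gave 5 members.

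**Figure D3:**
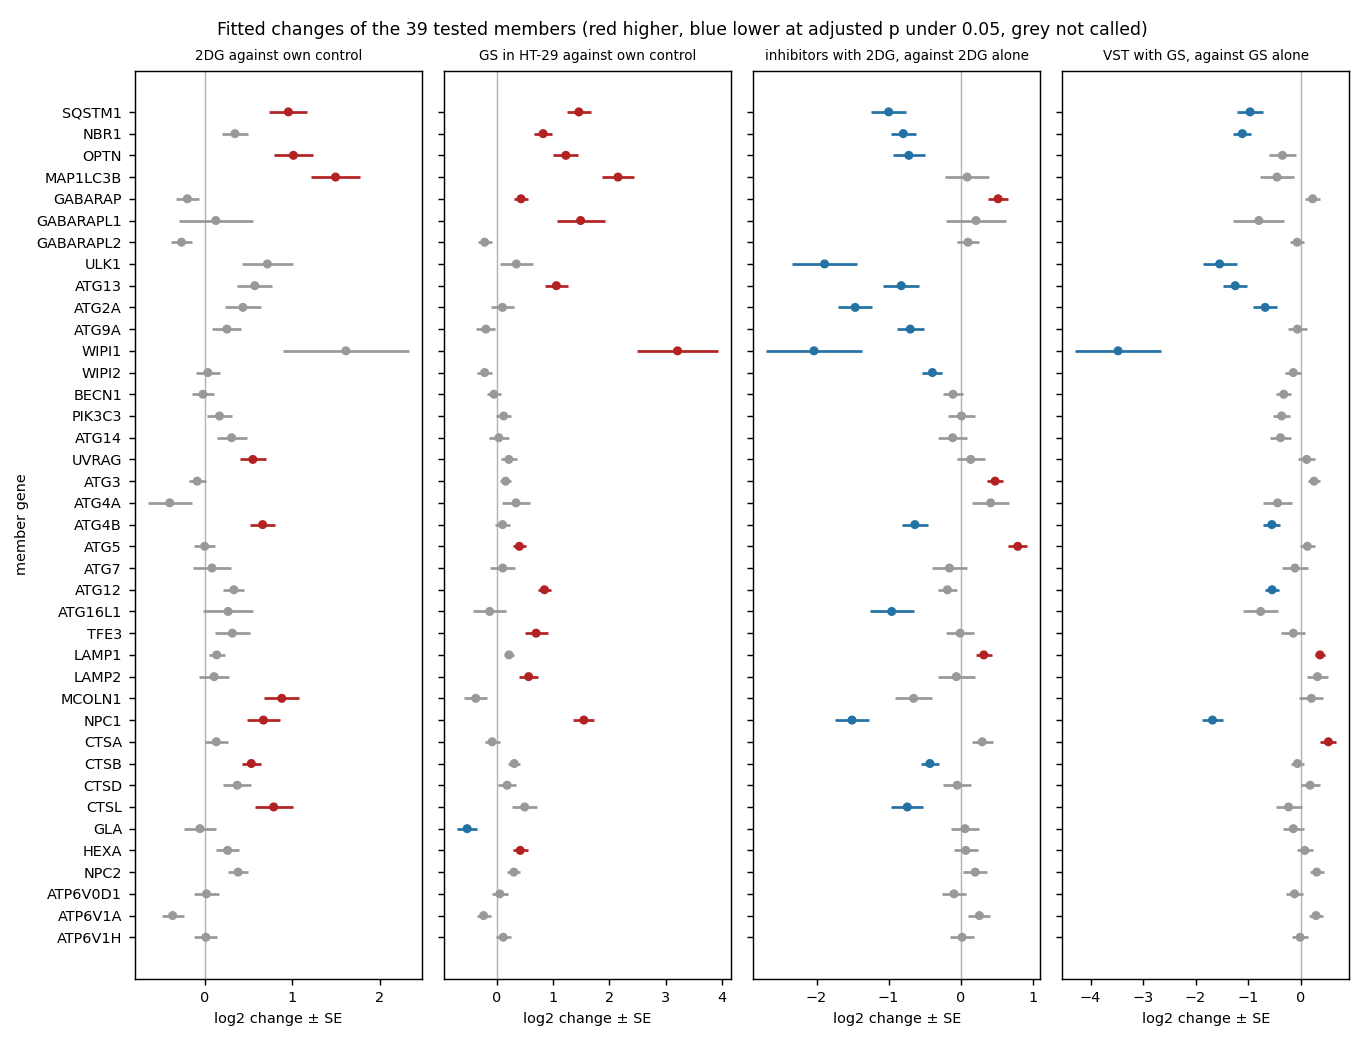
Fitted log2 change (points) with its limma standard error (bars) for the 39 tested members in 4 comparisons (panels: 2DG, GS in HT-29, inhibitors added to 2DG, VST added to GS); red points are higher and blue ones lower at an adjusted p under 0.05, and grey ones were not called. WIPI1 lies at 1.61 in grey with 2DG and at -2.03 in blue with inhibitors, with wide errors, and NPC1 at 0.67 and -1.51 with narrower ones.

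Versipelostatin with glucose starvation, averaged over 1 array of each line, lowered 9 members and raised 2 against GS alone, where 36.4% of all genes were called (14.3% higher and 22.1% lower). Autophagy factors made up 8 of the 9 falls and the lysosome genes CTSA and LAMP1 both rises. Neither rise was called with the deposited scaling, and that of LAMP1 was not called with quantile normalization either. WIPI1 read 74.5 in HT-1080 and 8.40 in HT-29 with VST, and at least 798 and 18.2 with GS alone. Its log2 difference was -3.48 (SE 0.82, adjusted p = 0.00624), or -2.31 without HT-29 GS replicate 1. The HT-29 array with VST lies under 45.5. Against that level the geometric mean of GS in HT-29 was at least 3.25-fold higher, with the 14 h GS array under that level too. NPC1 read 318 and 211 with VST, against 1104 and 1592 in HT-1080 and 701, 672 and 465 in HT-29, a difference of -1.68 (SE 0.21, adjusted p = 0.000155). Both lines had less NPC1 than any of their GS arrays.

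ULK1 read 14.6 in HT-1080 and 2.38 in HT-29 with VST, against 37.8 and 43.4, and 33.6, 40.6 and 24.3. It passed the test (adjusted p = 0.00344), but all these signals lie under 45.5 and no fold is given. ATG13 read 142 and 178 against 355 and 343, and 362, 589 and 282, a difference of -1.25. NBR1 read 447 and 212 against 729 and 830, and 661, 750 and 464, a difference of -1.11. In these 3 genes the VST arrays were below every GS array of their line. SQSTM1 read 1058 and 3368 with VST; in HT-29 this lay within the GS range of 2709 to 6508, and the joint difference was -0.96 (SE 0.25). With all probe sets of a gene averaged NBR1 stood at 0.16, NPC1 at -0.23 and SQSTM1 at -0.23, and none was called.

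ATG2A read 63.6 and 56.9 with VST, against 87.2 and 185 in HT-1080 and 95.9, 165 and 94.4 in HT-29, a log2 difference of -0.68. ATG4B read 170 and 293, against 292 and 246, and 376, 357 and 355, a difference of -0.55. Both genes were lower than on any GS array of the line. ATG12 also differed by -0.55. MAP1LC3B read 1276 and 1687, a difference of -0.45 (adjusted p = 0.302).

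CTSA, a serine carboxypeptidase that protects other hydrolases, was higher by 0.53 and LAMP1 by 0.37, or 0.097 and -0.07 with the deposited scaling. With that scaling 23 members were lower and none higher, and of all genes called 6.03% rather than 39.3% were higher. Without HT-1080 GS replicate 1 the count was 6 and without HT-29 GS replicate 1 it was 7. VST with 2DG, a single array, read 128 for WIPI1, 384 for NPC1, 1165 for SQSTM1 and 1209 for MAP1LC3B. Those values lie within the range of the 5 inhibitor arrays for NPC1, SQSTM1 and MAP1LC3B, and above it for WIPI1.

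Untreated HT-1080 rho0 cells differed from parental cells in several members. Whether the loss of mitochondrial DNA itself made the difference was not tested. The 2 HT-1080 rho0 controls had 7 members higher and 2 lower than the 6 parental controls, where 13.1% of all genes were called (6.15% higher and 6.95% lower). SQSTM1, NBR1, UVRAG, ATG12, WIPI2, BECN1 and NPC1 were higher, and GLA and ATG3 lower. NPC1 read 1316 and 1212 in rho0 cells, while the parental lowest, median and highest were 537, 730 and 783, a log2 difference of 0.87 (SE 0.16, adjusted p = 0.00264). NBR1 read 1010 and 971 against 462, 585 and 611, a difference of 0.81 (SE 0.13). GLA read 234 and 225 against 391, 407 and 511, a difference of -0.89 (SE 0.14, adjusted p = 0.00145). None of the 3 overlapped.

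SQSTM1 read 2003 and 1568 in rho0 controls against a parental range from 746 to 1415, a log2 difference of 0.74. UVRAG read 252 and 219 against 130 to 161, and ATG12 784 and 773 against 441 to 599. WIPI2 read 1287 and 1258 against 819 to 910, and BECN1, the scaffold of the class III kinase complex, 766 and 625 against 436 to 509. All of these were outside the parental range. ATG3 was lower by 0.39. With the deposited scaling the split was 2 higher and 7 lower, where 17.6% of all genes were called. SQSTM1, UVRAG, ATG12, WIPI2 and BECN1 were then not called. The share of all called genes that was higher moved from 46.9% to 18.0%, with the median of all genes at -0.15 in place of 0.02. Without rho0 control 1 the count was 2, and without rho0 control 2 it was 4.

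Under stress the rho0 cells had 1 array each, so every SE and p of their responses rests on the spread of the replicated groups. With 2DG NPC1 read 592, below both rho0 controls, while it rose in parental cells; the responses differed by a log2 of -1.81 (SE 0.37, adjusted p = 0.0141, 7.02% of all genes called). With GS, in an array with floating cells, SQSTM1 read 1225 beside 2003 and 1568 in the controls, and the response differed from the parental one by -2.17 (SE 0.46, adjusted p = 0.0437, 1.51% of all genes called). NPC1 read 738 there, a difference of -1.76 with an adjusted p of 0.0501. NPC1 lay below both rho0 controls under 2DG and GS, while SQSTM1 with 2DG, at 1694, lay between them.

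WIPI1 read 157 in rho0 cells with 2DG and 147 with GS, below their controls at 244 and 201, and 1079 with TM. MAP1LC3B read 1524, 802 and 1283 with 2DG, GS and TM against 507 and 523. OPTN read 814, 741 and 759 against 564 and 431. MAP1LC3B and OPTN were thus above the rho0 controls under each stress, and WIPI1 only with TM. The SQSTM1 call was lost with any parental array of that comparison left out. With all probe sets averaged both calls were lost, at -1.08 for SQSTM1 and -1.02 for NPC1. In HT-29 rho0 cells GS, at 14 h, gave 3149 for SQSTM1 against 1878, 584 for MAP1LC3B against 543, and 28.5 for WIPI1 against 90.0.

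**Figure D4:**
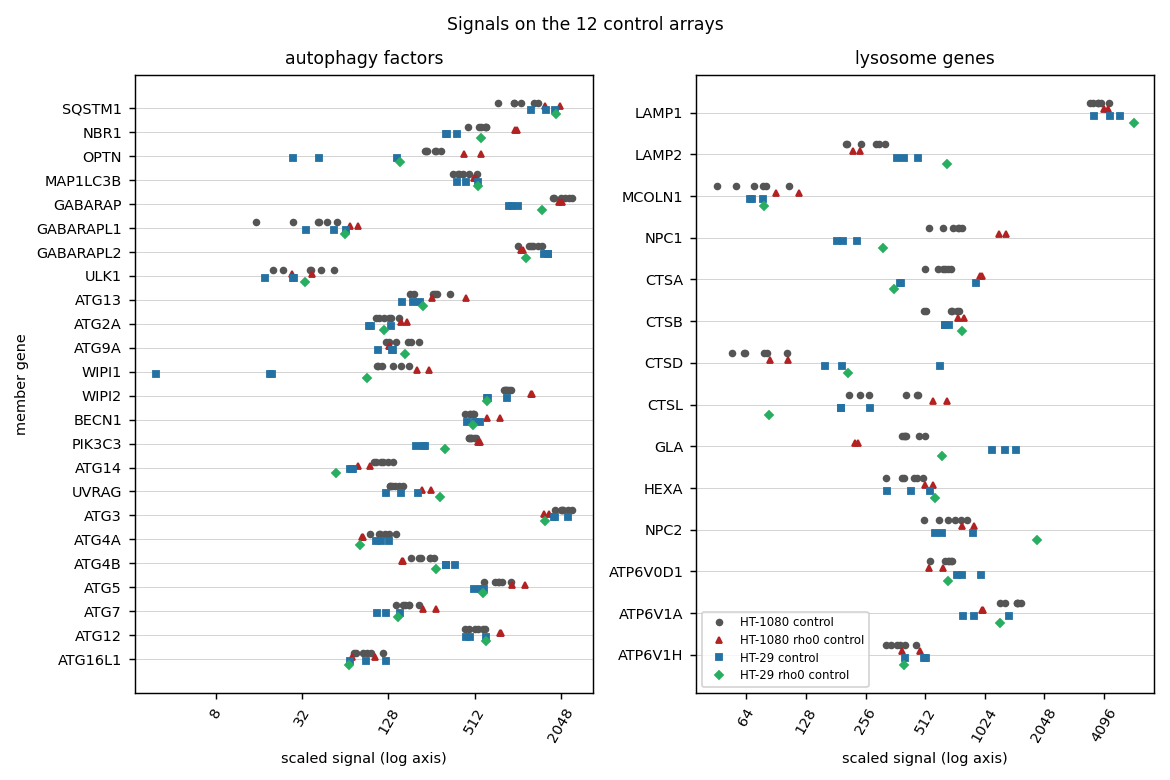
Scaled signal (log axis) of the autophagy factors (left; ULK2 not drawn) and lysosome genes (right) on the 12 control arrays, 1 point per culture, with symbols for line and mtDNA status. NPC1 lies between 183 and 232 in HT-29, between 537 and 783 in HT-1080 and at 1212 and 1316 in HT-1080 rho0 controls.

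The untreated lines differed in 18 of the 39 members, 7 higher and 11 lower in HT-29, where 59.8% of all genes were called (27.4% higher and 32.4% lower). WIPI1 read 3.04, 19.6 and 19.0 in HT-29 against a lowest, median and highest of 106, 127 and 177 in HT-1080, a fitted log2 difference of -2.96 (SE 0.30, adjusted p = 8.64e-07). All 3 HT-29 controls lie under 45.5, and against that level HT-1080 was at least 2.88-fold higher. OPTN read 27.7, 148 and 42.1 against 231, 256 and 298, a difference of -2.07. NPC1 read 196, 183 and 232 against 537, 730 and 783, a difference of -1.74 (SE 0.13, adjusted p = 4.84e-08). These 3 were lower in every HT-29 control.

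PIK3C3, the catalytic subunit of the class III kinase complex, read 221, 230 and 198 in HT-29 against 464, 480 and 520, a log2 difference of -1.15. GABARAP read 883, 925 and 1030 against 1798, 2124 and 2443, also -1.15. NBR1, at 323, 384 and 329 against 462, 585 and 611, was lower by 0.70, and by 0.15 without a call when its probe sets were averaged. Higher in HT-29 were CTSD, an aspartic protease, with 195, 606 and 160 against 53.8, 70.8 and 103 (1.81, SE 0.33), and GLA with 1302, 1120 and 1483 against 391, 407 and 511 (1.57, SE 0.12). No HT-29 control overlapped HT-1080 in these genes. The autophagy median was -0.25, with 3 factors higher and 9 lower, and the lysosome median 0.03, with 4 higher and 2 lower.

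Autophagy factors and lysosome genes were close to each other under a stress alone. The lysosome median less the autophagy median was -0.09 with 2DG, -0.05 with GS in HT-1080 and -0.08 with GS in HT-29. For GS in HT-1080 it was taken over fitted changes, and on the 2 arrays themselves it was 0.01 and 0.08, so its sign is not settled. For 2DG the 3 arrays gave 0.05, -0.07 and 0.02, and the fitted value was -0.05 to -0.04 with 1 array left out, so neither is that sign. For GS in HT-29 the fitted difference ran from -0.16 to 0.0291 with 1 array left out, so its sign is not settled either. With inhibitors added it was 0.16 under 2DG and 0.07 under GS, and with VST added to GS 0.54, since the autophagy median was -0.41 and the lysosome median 0.13. Under 2DG with inhibitors the medians were -0.17 and -0.02, beside -0.12 for all genes, and under GS with inhibitors -0.32 and -0.25, beside -0.03. With quantile normalization those under GS with inhibitors were -0.24 and -0.27, so the sign of that difference is not settled. On single arrays the difference ran from -0.11 to 0.08 for a stress alone in parental cells and from 0.06 to 0.39 for 2DG or GS with a compound, except -0.01 for 2DG with VST. TM with AA, at 0.19, lay within that second range, and TM with Rot, at -0.03, did not. In rho0 cells without a compound it was 0.08 with 2DG, 0.08 and 0.07 with GS in HT-1080 and HT-29, and -0.23 with TM.

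Within the lysosome genes the members moved apart. NPC1 was called in 9 of the 14 tested comparisons, while NPC2, its partner in the lumen, and ATP6V1H were called in none. NPC2 was above its own control on 25 of 26 arrays, with changes up to 1.00, and CTSD and HEXA on all 26. ATP6V1A was above on only 5. Among autophagy factors MAP1LC3B and OPTN were above the control on all 26 arrays and WIPI2 on 2. WIPI1 had the widest span of changes, from -1.48 to 5.55, the latter against an HT-29 control at 3.04. The counts of arrays in this paragraph hold for the common scaling and the probe set used. With GS and Rot or AA, another probe set of MAP1LC3B averaged -0.44 from its own control and another of OPTN -0.39.

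**Figure D5:**
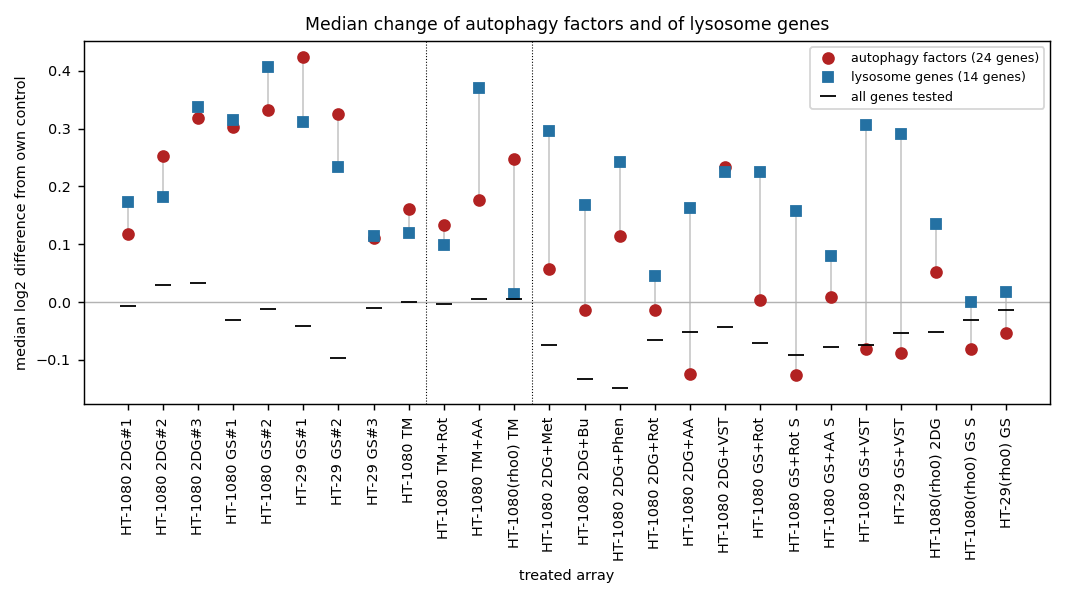
Median log2 change from the own control on each treated array for the 24 autophagy factors (circles), the 14 lysosome genes (squares) and all genes tested (dashes). The lysosome median is the higher by 0.06 to 0.39 where 2DG or GS was combined with a compound, except 2DG with VST at -0.01. It is also the higher by 0.19 for TM with AA and by 0.07 to 0.08 for rho0 cells with 2DG or GS, and the lower by 0.03 for TM with Rot and by 0.23 for rho0 with TM.

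Other genes of both pathways were read from longer lists of 36 autophagy and 42 lysosome genes tested. With 2DG 5 autophagy genes rose and 1 fell and 7 lysosome genes rose, led by ATP6V0A2, a subunit of the proton pump, at 1.66 and the peptidase TPP1 at 1.12. With GS in HT-1080 4 rose and 2 fell, and 7 lysosome genes rose, led again by ATP6V0A2 at 1.69. In both comparisons 16.7% of either list was called, against 8.27% and 9.45% of all genes. With GS in HT-29 10 rose and 1 fell, and 5 lysosome genes rose and 3 fell, with the sialidase NEU1 at 1.24. These are 30.6% and 19.0% of the lists, beside 27.1% of all genes.

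With inhibitors and 2DG 1 autophagy gene rose and 10 fell, and 3 lysosome genes rose and 10 fell. These are 30.6% and 31.0% of the lists, no more than the 34.5% of all genes called. VMP1, an ER protein needed for autophagosome formation, was the 1 rise at 3.73 (SE 0.27, adjusted p = 3.91e-07), and TP53INP1 at -3.10 and PLEKHM1, an adaptor for lysosome fusion, at -2.89 the largest falls. With inhibitors and GS 3 rose and 11 fell, and 4 lysosome genes rose and 10 fell, VMP1 again at 3.71, that is 38.9% and 33.3% of the lists beside 24.6% of all genes. With VST and GS 2 rose and 12 fell, and 5 and 7 in the lysosome list, with PLEKHM1 at -3.60 and VMP1 at 3.40, or 38.9% and 28.6% beside 36.4%. VMP1 was also the 1 gene of these lists called for inhibitors with TM, at 2.10.

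In the rho0 controls 6 autophagy genes were higher and 3 lower, and 11 lysosome genes higher and 1 lower, or 25.0% and 28.6% of the lists beside 13.1% of all genes. The response of rho0 cells to 2DG differed from the parental one in 1 autophagy gene upwards and 2 downwards and in 2 lysosome genes downwards, among them PLEKHM1 at -3.01 and ATP6V1B2 at -2.36, where 7.02% of all genes were called. For GS 1 was up and 1 down, and 2 lysosome genes down, with VMP1 at 3.23 and PLEKHM1 at -2.70, where 1.51% of all genes were called. The inhibitor effect differed between 2DG and TM in 1 autophagy gene upwards and 1 downwards and in 3 lysosome genes downwards, beside 4.51% of all genes. Untreated HT-29 had 5 of these autophagy genes higher and 16 lower than HT-1080, and 17 lysosome genes higher and 7 lower, that is 58.3% and 57.1%, near the 59.8% of all genes.

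Other probe sets of some members gave other values. MAP1LC3B had a second probe set, for which the change with 2DG was 0.79 rather than 1.49 and that with 2DG and inhibitors 0.37 rather than 1.73. For SQSTM1 a dimmer probe set changed by 3.02 with 2DG and inhibitors, where the one used here stood at 0.00, and for NPC1 another stood at 1.81 against -0.83. The members' values here are those of the probe set with the highest mean signal.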

How the data were processed

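Total RNA of 38 cultures was hybridized to 1 Affymetrix array each. The deposited values are MAS5 signals, a linear intensity per probe set, per the submitters' processing notes, and their scaling differs between arrays. From these intensities each array was scaled here to a common 2% trimmed mean of 114, and log2 of the signal plus 5% of that mean was taken. Of 54675 probe sets, 41097 have 1 gene symbol and were used. Probe sets entered when 2 or more arrays were at or above 40% of that mean, and each gene was tested through the brightest that entered. A member was counted only when the brightest of all its probe sets had entered.

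Tests used R 4.3.3 and limma 3.58.1 (trend on intensity), and p-values were Benjamini-Hochberg adjusted over 11456 genes in each of 14 comparisons. The control named in each sample description was a fixed block; over the 3 HT-29 pairs the deviations of GS and control arrays correlated at 0.349, 0.629 and 0.445. The model by group left 5 residual degrees of freedom, that by inhibitor class 11, and that of the controls 8. Conditions with a single array take the spread of the replicated conditions, and p-values reflect the spread among cultures, which may be technical. In the model by inhibitor class, arrays of different compounds with the same stress share 1 coefficient. Differences between those compounds therefore count as error there, beside the spread among cultures. Control arrays are shared between treated arrays: HT-1080 control 6, for example, is the own control of 7 arrays.

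The members and the longer pathway lists were chosen with earlier results of these data known, so no test was made over a list. Values per array are given for members past the threshold, at most the 8 largest changes, otherwise for the 2 largest; TM, VST with 2DG and rho0 arrays are described for members already named. Probe set comparisons were chosen after their values were seen. Of the longer lists, at most 4 genes per comparison are named, the largest changes past the threshold.

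The models were tested on simulated data of the same design: a log2 change of 1 was recovered for 70% of changed genes with 2DG, 49% with GS in HT-1080 and 61% for inhibitors with 2DG, and a change of 2 for 100%, 94% and 98%. For the rho0 response to GS 7% and 57% were recovered. The number of arrays limits the precision. Alternatives were other offsets and filters, quantile normalization, the deposited scaling, the mean of all probe sets, no trend, no block, arrays of 1 line, biguanides or Rot and AA alone, and leaving out each array; leaving out the floating-cell arrays was added after seeing the data.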

Additional observations from a re-analysis of the deposited data

Results flagged for a closer look

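In the 6 HT-1080 controls, 2 of 41 genes had 1 array far from the others by Dixon's test, which chance gives in about 1 in 20 groups. Control 6 read 282 for TFE3, with the others from 433 to 502 (gap over range 0.744), and 540 for ATP6V0D1, with the others from 649 to 699 (0.71). Control 6 is the own control of GS replicate 2, of the parental HT-1080 arrays with TM (alone, with Rot and with AA) and of the GS arrays with Rot or AA, so changes of both genes on those arrays start from it.

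Effects whose fitted difference between groups passed the threshold were the inhibitor effect on NPC1 with 2DG less that with TM (-1.77), the 2DG response of NPC1 in rho0 less parental HT-1080 (-1.81) and the GS response of SQSTM1 in rho0 less parental HT-1080 (-2.17). Each rho0 stress is 1 array against 1 control, so its error is that of the other, replicated groups, and the GS array includes floating cells.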

How the results depend on the processing

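Counts of called members and the median differences below kept their direction except where given, and of 969 calls of single members under other settings 828 were kept, 134 lost and 7 reversed; of 807 with 1 array left out 601 were kept and 206 lost. Apart from values printed here, the cause of a change was not tested. Fewer arrays leave fewer residual degrees of freedom. The share of all genes called with 1 array left out, or with biguanides alone, is not given. A lower count of members in those fits therefore cannot be set apart from fewer calls among all genes.

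Reversed members were LAMP1 for inhibitors with 2DG (-0.0671 deposited scaling, -0.10 quantile) and for VST (-0.0668, -0.0259), and, with the mean of all probe sets, NBR1 (0.28) and HEXA (0.58) for inhibitors with GS and NBR1 for VST (0.16). The lysosome less autophagy median changed sign for GS in HT-1080 to 0.00697 with an offset of 20% and 0.00203 with the mean of probe sets. It also changed sign for inhibitors with GS under quantile normalization, where the autophagy median was -0.24 and the lysosome median -0.27. It moved to -0.0139 for GS in HT-29 with the stricter filter, to -0.0150 for 2DG with the mean of probe sets, to 0.30 for VST with quantile normalization and with no replicate block, and for inhibitors with 2DG to 0.28 with no replicate block and 0.33 with biguanides only.

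With the deposited scaling the counts were 23 for inhibitors with GS, 23 for VST, 5 for inhibitors with 2DG less TM, 2 for rho0 2DG and 4 for rho0 GS. With no trend they were 3 for 2DG, 8 for GS in HT-29, 0 for inhibitors with 2DG less TM and 0 for rho0 GS. With no replicate block they were 9 for GS in HT-29 and 3 for rho0 GS, and no other count moved by over 1.5 times. With 1 line they were 15 for 2DG, 16 for GS in HT-1080, 8 for GS in HT-29, 1 for 2DG less GS, 7 for inhibitors with 2DG less TM, 7 for rho0 2DG, 8 for rho0 GS and 16 for rho0 controls. The rho0 GS count was 2 with an offset of 20% or the stricter filter, and 0 with an offset of 1%, no filter or the mean of probe sets, which also gave 0 for rho0 2DG. Biguanides alone gave 5 against 2DG and 2 for 2DG less TM.

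With 1 array left out the counts were 0 to 0 for 2DG, GS in HT-1080 and rho0 GS, 7 to 18 for GS in HT-29, 5 to 18 for inhibitors with 2DG, 1 to 9 with GS, 0 to 2 for 2DG less TM, 6 to 14 for VST, 2 to 10 for rho0 controls and 0 to 2 for GS between lines. The median differences ran from -0.05 to -0.04 for 2DG, 0.0121 to 0.0757 for GS in HT-1080, -0.16 to 0.0291 for GS in HT-29, 0.0665 to 0.27 and 0.00368 to 0.21 for inhibitors with 2DG and GS, and 0.36 to 0.61 for VST.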
